A study of Mus musculus with 2148 samples.

Results

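Genes linked to medullary progenitors and to adhesion were followed across mouse thymic epithelial cells: Trp63, Itga6, Pdpn, Plet1, Cldn3, Cldn4, Ly6d, Ly6a and Epcam, 9 of the 48437 genes of the count table. They were listed by symbol, no measured value entered the rule, and all 9 were found through the symbol of their Ensembl identifier. The cells were single thymic epithelial cells of C57BL/6 mice, sorted as CD45- EpCAM+ and sequenced with RamDA-seq, which copies the full length of total RNA from random and oligo(dT) primers. Cortical cells (cTEC) were Ly51+, and medullary cells (mTEC) were Ly51- with high (mTEChi) or low (mTEClo) MHC class II. EpCAM, the product of 1 of the 9 genes, was therefore itself a gate of the sort.

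The 1980 cells fell into 8 groups. Adult wild-type (WT) mice gave 31.3% of the cells as mTEChi, 18.03% as mTEClo and 3.89% as cTEC (77 cells). Adult Aire-KO mice, which lack the transcriptional regulator Aire and were all labelled 5 weeks old and male, gave 17.1% as mTEChi and 7.78% as mTEClo. WT newborns of 1 day, of unknown sex, gave 8.64% as mTEChi, 6.26% as mTEClo and 7.02% as cTEC. The labels do not number the mice, so cells of a group that shared age and sex were summed into a pool, which may hold several mice. Adult WT mTEChi had 4 pools (males of 4, 5 and 6 weeks and females of 4 weeks), adult WT mTEClo had 3 (males of 4, 5 and 8 weeks) and adult WT cTEC had 1 (males of 6 weeks), as had each other group. Levels are given as CPM, the counts of a pool scaled to its total.

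Depth ran from 203010 to 1823784 reads in a cell (median 692880) and from 7990398 to 351545799 reads in a pool, and the smallest pool, 5-week mTEChi, held 12 cells. The 8-week adult WT mTEClo pool stood apart. It is labelled male, but 66.4% of its cells had 5 or more reads of Xist, the RNA of the inactive X chromosome, while 94.5% had 5 or more reads summed over 4 Y-linked genes. Most of its cells that passed the Xist level also passed the Y-linked level. In the 4- and 5-week mTEClo pools Xist passed that level in 7 of 66 cells (10.6%) and 3 of 74 cells (4.05%). The adult cTEC pool, also labelled male, had it in 30 of 77 cells (39.0%) and the Aire-KO mTEClo pool in 20.8% of cells. The 8-week pool also differed in marker genes. At least 4 of 8 tuft cell markers (Trpm5, Pou2f3, Avil, Il25, Gnat3, Sh2d6, Chat and Dclk1) had 5 or more reads in 6.91% of its cells, against 82.4% in the 5-week and 57.6% in the 4-week pool. Summed immature mTEC markers (Ccl21a, Krt5 and 4 others) were at 4172 CPM in the 8-week pool and at 1277 and 996 CPM in the 5- and 4-week pools. Over the 13 pools, 8 thymocyte markers summed to 29.7 to 387.2 CPM and 8 fibroblast markers to 129.5 to 646 CPM. The 8 myeloid markers (Lyz2 highest in most pools) parted by sort, at 304.2 to 682 CPM in the mTEChi pools and 22.9 to 74.4 CPM in the mTEClo and cTEC pools, and so moved with each mTEClo to mTEChi comparison. The part of these markers in the results was not tested. Beside most adult mTEClo results, values without the 8-week pool or within single pools are given. Age and experimental batch, as the labels call it, cannot be told apart among the adult WT mTEClo pools, since no batch held cells of more than 1 of them.

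As background, the thymic epithelium forms a cortex, where T cell precursors are positively selected, and a medulla, where mTECs display self-antigens. The mTEClo gate holds immature cells together with several terminally differentiated types, and the mTEChi gate holds the mature cells that use Aire. Trp63 encodes p63, the transcription factor that maintains the proliferative capacity of stratified and thymic epithelium. Itga6 encodes the alpha chain of a laminin receptor that anchors basal cells, and Epcam encodes a homophilic adhesion molecule of epithelial cells. Pdpn encodes podoplanin, a mucin-type surface glycoprotein found on immature thymic epithelium. Cldn3 and Cldn4 encode tight junction claudins that mark medullary precursors in the embryo. Plet1 encodes a membrane-anchored glycoprotein used as a marker of early thymic epithelial progenitors, and Ly6d and Ly6a (Sca-1) encode small anchored surface proteins of the Ly6 family.

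On GRCm38 (GENCODE M21, from gene start to gene end) Trp63 spans chr16:25683763-25892102 on the plus strand. Itga6 spans chr2:71745616-71858416 (plus) and Pdpn chr4:143267431-143299564 (minus). Plet1 spans chr9:50494525-50505482 (plus) and Epcam chr17:87635979-87651129 (plus). Cldn4, at chr5:134945119-134946934 on the minus strand, and Cldn3, at chr5:134986214-134987472 on the plus strand, are neighbours with starts 39280 bases apart that are read away from each other. Ly6d (chr15:74762056-74763620) and Ly6a (chr15:74994877-74998031) both lie on the minus strand of the Ly6 cluster. Counting ignored strand, and 13.4% of the bases of the Plet1 exons overlap the antisense gene Plet1os, which had 1005 reads in all cells against 23771 of Plet1. Of the Cldn3 exons 40 bases (3.18%) overlap the antisense gene Wbscr25, with 3470 reads against 76127 of Cldn3. The other 7 genes share no exon base with another gene, but Ly6a has close relatives in its cluster between which reads could be split, so its counts are uncertain to that extent.

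The 250 bases before the start of 4 of the genes are shown: Cldn3 and Cldn4 because these neighbours moved together across cells, Pdpn because it was called in both the adult and the newborn sort comparison, and Epcam because its level varied least over the 13 pools (180.7 to 456.1 CPM). They come from RefSeq (GRCm38.p6) and read 5′ to 3′ on the strand of the gene. Capitals mark matches on either strand to an E-box (CACCTG), an AP-1 site (TGACTCA) or a GC box (GGGCGG), motifs chosen with these results known, and no matches overlap.
Cldn3 chr5:134985964-134986213 plus: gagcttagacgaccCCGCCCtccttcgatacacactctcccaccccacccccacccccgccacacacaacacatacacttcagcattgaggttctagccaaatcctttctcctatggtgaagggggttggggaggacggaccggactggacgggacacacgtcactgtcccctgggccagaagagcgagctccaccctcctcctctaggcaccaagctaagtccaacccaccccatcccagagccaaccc
Cldn4 chr5:134946935-134947184 minus: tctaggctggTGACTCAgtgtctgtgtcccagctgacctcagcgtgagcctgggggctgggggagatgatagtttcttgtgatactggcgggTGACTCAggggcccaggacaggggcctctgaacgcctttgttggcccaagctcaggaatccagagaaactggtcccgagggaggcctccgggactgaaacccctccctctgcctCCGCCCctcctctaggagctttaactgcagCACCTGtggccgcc
Pdpn chr4:143299565-143299814 minus: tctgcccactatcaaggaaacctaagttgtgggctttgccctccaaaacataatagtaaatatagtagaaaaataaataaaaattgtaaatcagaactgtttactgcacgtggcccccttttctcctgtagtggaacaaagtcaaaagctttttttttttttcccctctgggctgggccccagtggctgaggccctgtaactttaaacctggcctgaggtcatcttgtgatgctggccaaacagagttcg
Epcam chr17:87635729-87635978 plus: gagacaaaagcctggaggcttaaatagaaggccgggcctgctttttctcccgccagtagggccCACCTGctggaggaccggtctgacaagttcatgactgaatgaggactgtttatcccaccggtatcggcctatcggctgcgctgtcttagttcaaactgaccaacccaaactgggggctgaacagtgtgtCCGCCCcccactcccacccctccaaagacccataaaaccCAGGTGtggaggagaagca
The Cldn4 window held 2 AP-1 matches, 1 GC box and 1 E-box, and the Cldn3 window held 1 GC box and neither of the others. The Epcam window held 2 E-boxes and 1 GC box, and the letters of none of the 3 motifs are in the Pdpn window. Of 32851 promoters of the same length, 17.2% held the E-box, 4.46% the AP-1 site and 32.7% the GC box. A match describes the letters of the window and not a bound site. The RefSeq table had an entry for 5 of the 9 genes.

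**Figure D1:**
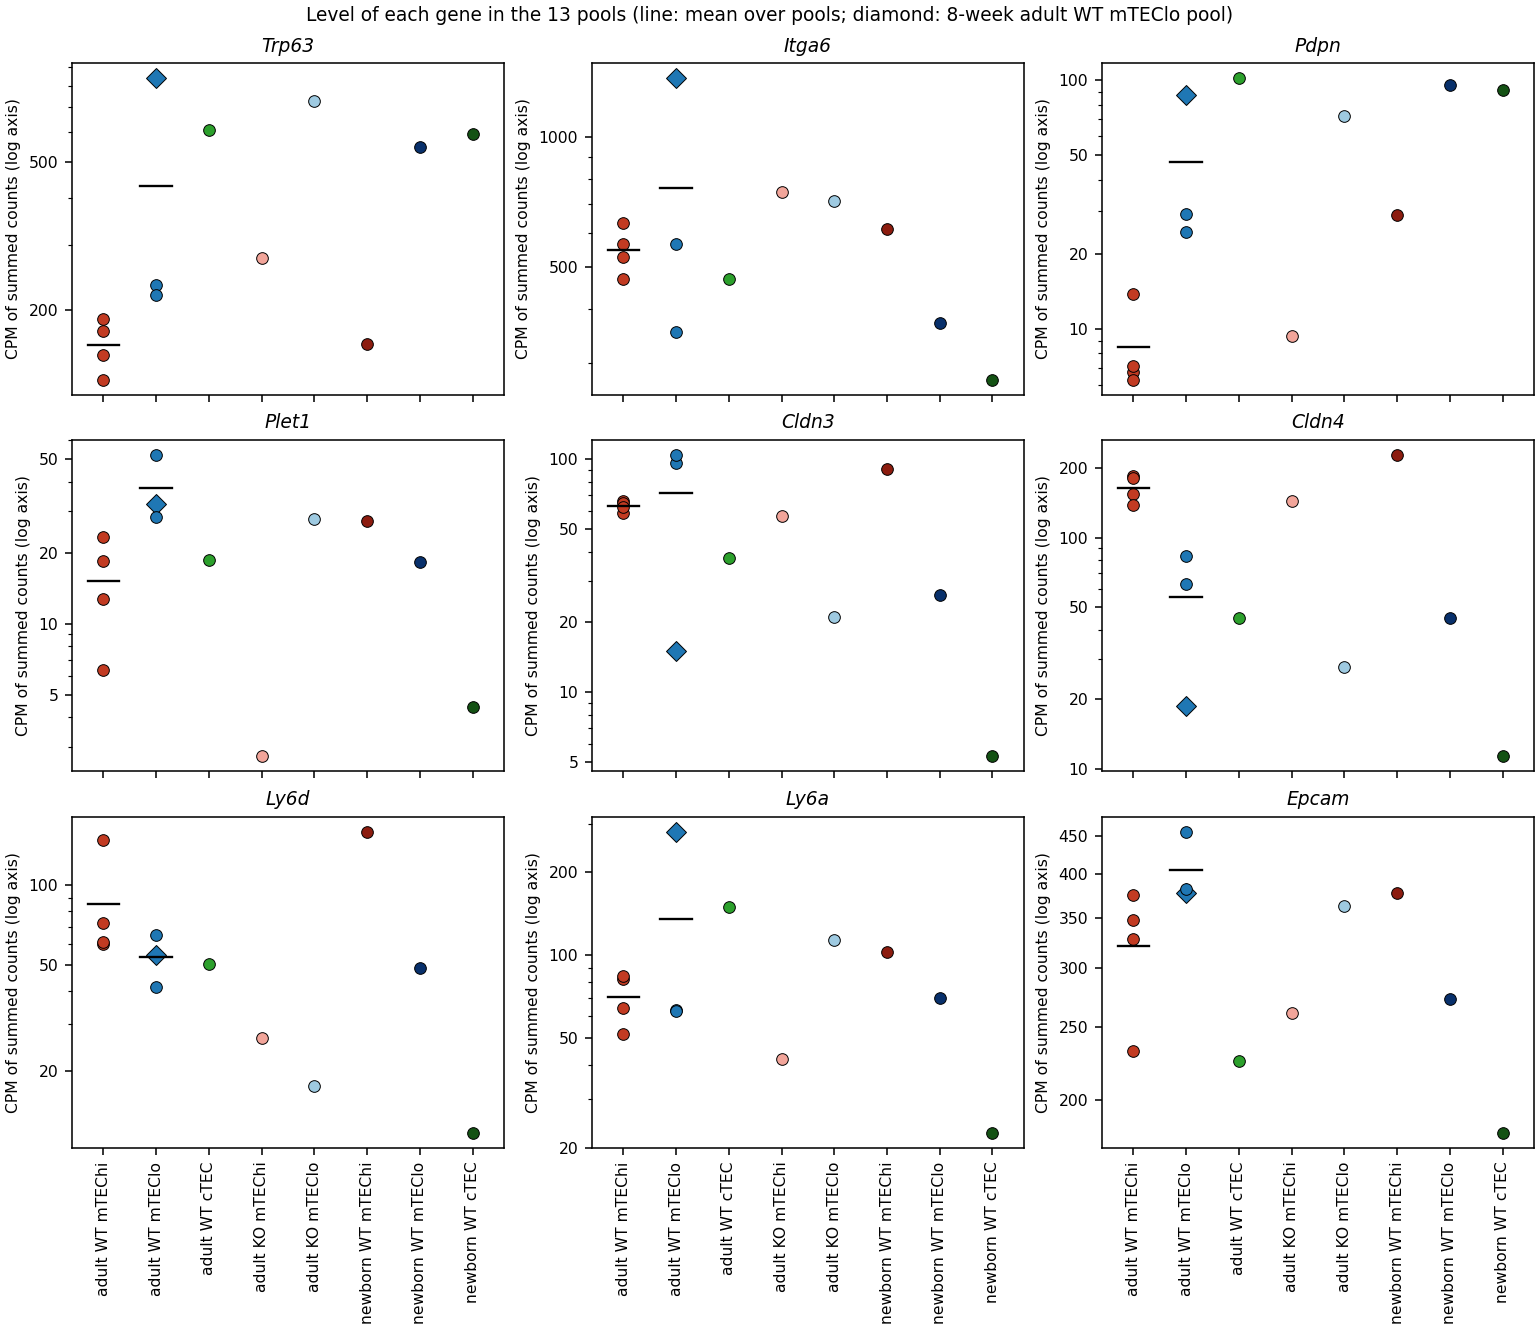
Level of each gene in the 13 pools. Each panel is 1 gene, the horizontal axis lists the 8 groups and the vertical log axis gives CPM; each point is a pool, the line is the mean over pools and the diamond is the 8-week adult WT mTEClo pool. That pool is the highest of its group for Trp63 (837 CPM), Itga6 (1369 CPM), Pdpn (87.6 CPM) and Ly6a (280.97 CPM) and the lowest for Cldn3 (15.03 CPM) and Cldn4 (18.8 CPM).

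Adult mTEClo were first compared with adult mTEChi, the sorts of low and high MHC class II. Summed immature mTEC markers were at 851 to 1209 CPM in the mTEChi pools, so the 4- and 5-week mTEClo pools lay within or just above that range and the 8-week pool far above it. Pdpn was higher in mTEClo, at 47.1 ± 35.2 CPM (SD, n = 3) against 8.499 ± 3.56 CPM (SD, n = 4), and was the only member past the test. Trp63, Plet1 and Epcam were at higher values and Cldn4 at lower values in every mTEClo pool than in every mTEChi pool without passing it, and Itga6, Cldn3, Ly6d and Ly6a overlapped. A gene was called at a Benjamini-Hochberg adjusted p under 0.05 with a fold of at least 2, in the quasi-likelihood test of edgeR on pools over all genes tested. That rule called 11.7% of the 39971 genes in this comparison (4.13% higher and 7.54% lower in mTEClo) and 1 of 9 members. An unadjusted p under 0.05 was seen for 34.6% of genes and 5 of 9 members. Pools that did not overlap were seen for 5 of 9 members and for 25.9% of all genes (9.85% higher and 16.1% lower). The median difference of all genes was -0.30 on the log2 scale.

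Pdpn was at 29.1, 24.6 and 87.6 CPM in the 4-, 5- and 8-week mTEClo pools. In mTEChi it was at 13.8, 6.76 and 6.28 CPM in males of 4, 5 and 6 weeks and at 7.15 CPM in females. The lowest mTEClo pool thus lay above the highest mTEChi pool, and the fitted difference was 2.73 ± 0.55 (log2 ± SE, edgeR, adjusted p = 0.0186). Without the 8-week pool the difference was 1.78 ± 0.35 and was still called (adjusted p = 0.0204). Without the 6-week or the female mTEChi pool it was 2.50 and 2.66, and the call was lost (adjusted p = 0.0501 and 0.0542).

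Trp63 was at 219.8, 234.1 and 837 CPM in the 4-, 5- and 8-week mTEClo pools. In mTEChi it was at 175.6, 130.4 and 190.01 CPM in males of 4, 5 and 6 weeks and at 151.4 CPM in females. The sorts did not overlap, but the younger mTEClo pools lay close above mTEChi and the 8-week pool far above it. The difference was 1.68 ± 0.50 (log2, edgeR, adjusted p = 0.0588) with that pool and 0.61 ± 0.17 (adjusted p = 0.0596) without it. Itga6 was at 354.3, 564.8 and 1369 CPM in the mTEClo pools and at 468.8 to 632 CPM in mTEChi. The groups overlapped, with a difference of 0.73 ± 0.44 (log2, edgeR, adjusted p = 0.261) that became -0.13 ± 0.21 without the 8-week pool.

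The claudins differed from each other. Cldn4 was at 83.4, 63.3 and 18.8 CPM in the 4-, 5- and 8-week mTEClo pools and at 138.3 to 184.2 CPM in mTEChi. Every mTEClo pool was below every mTEChi pool, and the difference was -1.43 ± 0.41 (log2, edgeR, adjusted p = 0.0533) over all pools and -1.04 ± 0.21 (adjusted p = 0.0204, called) without the 8-week pool. Cldn3 was at 104.6 and 96.4 CPM in the 4- and 5-week mTEClo pools but at 15.03 CPM in the 8-week pool. In mTEChi it was at 58.9 to 65.97 CPM, a narrow range. The younger mTEClo pools thus lay above mTEChi and the 8-week pool below it. The difference was 0.33 ± 0.50 (log2, edgeR, adjusted p = 0.668) over all pools and 0.80 ± 0.16 (adjusted p = 0.0199, under the fold of 2) without that pool.

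Plet1 was at 51.9, 28.2 and 32.2 CPM in the 4-, 5- and 8-week mTEClo pools. In mTEChi it was at 12.7, 6.38 and 18.5 CPM in males of 4, 5 and 6 weeks and at 23.2 CPM in females. The groups were separate and the 8-week pool lay among the others, with a difference of 1.48 ± 0.45 (log2, edgeR, adjusted p = 0.0621) that was 1.52 ± 0.51 without it. Without cells that held at least 4 of the 8 tuft markers, the mTEClo pools were at 30.3, 10.7 and 32.4 CPM. The mTEChi pools were then at 6.73 to 23.8 CPM, so the groups overlapped. Ly6a was at 62.9, 63.1 and 280.97 CPM in the mTEClo pools and at 51.6 to 84.2 CPM in mTEChi. The younger mTEClo pools lay within the mTEChi range and the 8-week pool above it, and the difference was 1.22 ± 0.57 (log2, edgeR, adjusted p = 0.164) with that pool and -0.041 ± 0.24 without it. Summed endothelial markers (Esam and 7 others), of cells known to carry Ly6a, were at 34.8, 34.6 and 14.1 CPM in the same mTEClo pools. Esam alone gave 26.9, 29.1 and 5.63 CPM of these sums.

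Ly6d was at 41.3 to 65.3 CPM in mTEClo and at 60.1 to 148.6 CPM in mTEChi, with a difference of -0.48 ± 0.37 (log2, edgeR, adjusted p = 0.385) that was -0.56 ± 0.44 without the 8-week pool. Epcam was at 377.7 to 456.1 CPM in mTEClo and at 232.5 to 375.5 CPM in mTEChi, a difference of 0.53 ± 0.19 (log2, edgeR, adjusted p = 0.0957) that was 0.51 ± 0.20 without it.

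The 3 experimental batches of the 8-week pool lay on 1 side of both younger pools for 6 of the genes. Trp63 was at 770.3 to 892 CPM in them, Itga6 at 1226 to 1455 CPM and Ly6a at 260.3 to 300.2 CPM. Pdpn was at 77.9 to 95.8 CPM, Cldn3 at 13.02 to 18.1 CPM and Cldn4, the most spread, at 6.53 to 30.1 CPM. Plet1, at 25.1 to 41.4 CPM, was not on 1 side of them. How many of all genes parted by pool in this way was not counted, so the count of 6 is a description. The share of cells with a read parted in the same way. After each cell was thinned to 200000 reads, Pdpn was found in 90.8% of cells of the 8-week pool (exact 95% interval 86.1 to 94.3%, counting error only), against 24.3% (15.1 to 35.7%) and 21.2% (12.1 to 33.02%) in the 5- and 4-week pools. Cldn3 was found in 32.3% against 79.7% and 81.8%, Ly6a in 98.2% against 39.2% and 30.3%, and Trp63 in 99.5% against 78.4% and 75.8%. In pool sums, fewer cells of a type and less RNA per cell cannot be told apart.

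**Figure D2:**
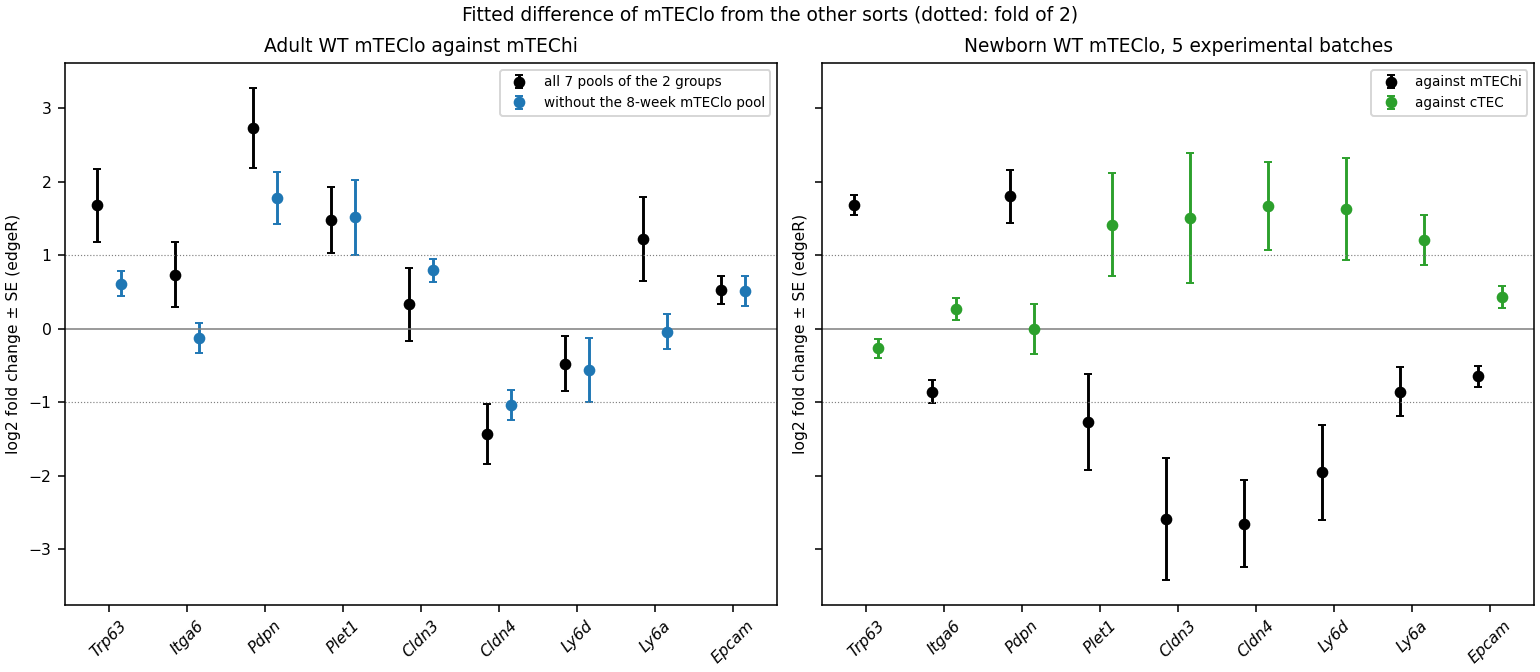
Fitted differences of mTEClo from the other sorts for the 9 genes. Both panels give the log2 fold change from edgeR with its SE. The left panel shows adult mTEClo against mTEChi with all pools and without the 8-week mTEClo pool, where Itga6 and Ly6a move to -0.13 and -0.041, and the right panel shows newborn mTEClo against mTEChi and against cTEC over 5 experimental batches, where Cldn3, Cldn4 and Ly6d lie below 0 against mTEChi and above 0 against cTEC.

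Newborn mTEClo were compared with newborn mTEChi in 5 experimental batches that each held all 3 sorts, with batch as a term of the fit. Trp63 and Pdpn rose and Cldn3, Cldn4 and Ly6d fell in mTEClo. Itga6 and Epcam had an adjusted p under 0.05 with a fold under 2, and Plet1 and Ly6a did not pass. The rule called 31.9% of the 23349 genes tested (12% higher and 19.9% lower) and 5 of 9 members. At any fold 49% of genes and 7 of 9 members had an adjusted p under 0.05, and 55.9% of genes and 8 of 9 members an unadjusted p under 0.05. The labels name no mice for the batches, so these p-values measure the spread between batches, which may be technical.

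Trp63 was at 157.99, 206.8, 145.3, 179.6 and 120.6 CPM in mTEChi of batches 16 to 20. In mTEClo of the same batches it was at 519.8, 607.4, 719.7, 536.8 and 416.1 CPM. The sorts did not overlap, and the difference was 1.68 ± 0.14 (log2, edgeR, adjusted p = 1.2e-05, higher in 5 of 5 batches). Pdpn was at 21.3, 66.5, 16.96, 9.57 and 30.8 CPM in mTEChi and at 86.98, 96.9, 72.8, 115.8 and 92.5 CPM in mTEClo. It too was separate, at 1.80 ± 0.36 (log2, edgeR, adjusted p = 0.00217).

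Cldn4 was at 182.8, 211.8, 360.1, 193.7 and 240.3 CPM in mTEChi of batches 16 to 20. In mTEClo it was at 62.7, 4.803, 37.4, 34.03 and 94.5 CPM. It was lower in 5 of 5 batches, and the difference was -2.65 ± 0.60 (log2, edgeR, adjusted p = 0.00429). Cldn3 was at 101.3, 45.1, 67.6, 113.3 and 119.6 CPM in mTEChi and at 24.3, 0.437, 8.40, 11.5 and 78.7 CPM in mTEClo. It was lower in 5 of 5 batches by unequal amounts. The difference was -2.59 ± 0.83 (log2, edgeR, adjusted p = 0.0248) and was not called without batch 16, 18 or 19 (adjusted p = 0.0686, 0.0832 and 0.0957).

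Ly6d was at 129.8, 38.2, 170.4, 242.1 and 238.4 CPM in newborn mTEChi of batches 16 to 20. In mTEClo it was at 86.98, 1.94, 31.7, 57.4 and 82.7 CPM. It was lower in 5 of 5 batches, at -1.96 ± 0.65 (log2, edgeR, adjusted p = 0.0290), and not called without batch 18, 19 or 20 (adjusted p = 0.1098, 0.0959 and 0.0774). Itga6 was at 491.3 to 822 CPM in mTEChi and at 278.6 to 511.2 CPM in mTEClo, a difference of -0.86 ± 0.15 (log2, edgeR, adjusted p = 0.00105). Epcam was at 339.7 to 436.7 CPM in mTEChi and at 197.2 to 366.6 CPM in mTEClo, a difference of -0.65 ± 0.15 (log2, edgeR, adjusted p = 0.00468), with batch 20 the exception in direction. Plet1 differed by -1.27 ± 0.65 (log2, edgeR, adjusted p = 0.132). It was called without batch 20, where its mTEClo level was highest (48.6 CPM), at -1.86 ± 0.62 (adjusted p = 0.0382). Ly6a differed by -0.86 ± 0.33 (log2, edgeR, adjusted p = 0.0530) and was likewise called without batch 20, at -1.03 ± 0.33 (adjusted p = 0.0327).

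By share of cells Cldn3, Cldn4 and Pdpn differed between the newborn sorts in the same directions as by level. At 200000 reads per cell Cldn3 was found in 73.7% of mTEChi and 23.4% of mTEClo, Cldn4 in 94.7% and 38.7%, and Pdpn in 43.9% and 90.3%. Trp63 was found in nearly every cell of both sorts (98.8% and 97.6%). For the claudins and Pdpn the share moved with the level. For Plet1 it did not, at 27.5% of mTEChi and 36.3% of mTEClo, where its level was 27.2 and 18.2 CPM.

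Whether the mTEClo to mTEChi difference changed with age was tested as an interaction over pools. No member and no gene was called (0% of 39971; 3.81% of genes and 0 members had an unadjusted p under 0.05, and DESeq2 called 0.628% of genes and 0 members). Epcam had the smallest p among the members, at -0.92 ± 0.41 (log2, newborn minus adult, edgeR, unadjusted p = 0.0518, adjusted p = 1).

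**Figure D3:**
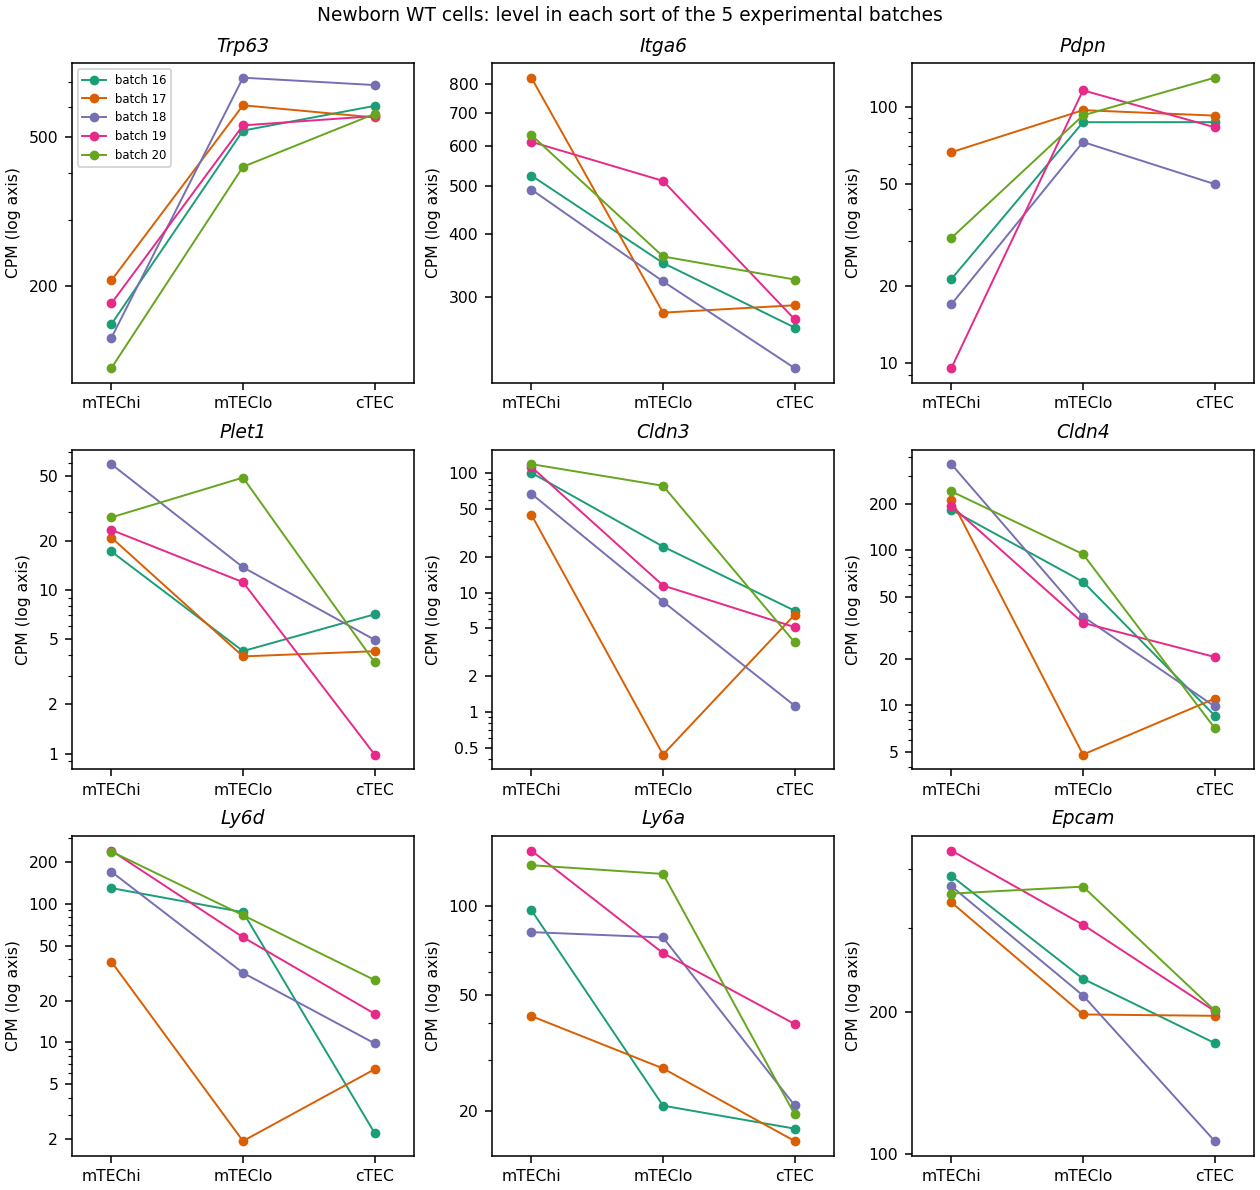
Level of each gene in the 3 newborn sorts. The horizontal axis gives the sort and the vertical log axis CPM, and each line joins the sums of 1 of the 5 experimental batches. Trp63 is higher and Cldn4 lower in mTEClo than in mTEChi of each batch, and batch 17 has the lowest mTEClo level of Cldn3 (0.437 CPM), Cldn4 (4.803 CPM) and Ly6d (1.94 CPM).

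Against newborn cTEC, newborn mTEClo had no member called, where 3.66% of 23349 genes were (1.66% higher and 2% lower in mTEClo; 8.33% of genes and 0 members had an adjusted p under 0.05 at any fold). Trp63 was at 563.5 to 688 CPM in cTEC of the 5 batches, within the mTEClo range, with a difference of -0.27 ± 0.13 (log2, edgeR, adjusted p = 0.251). Pdpn was at 87.1, 92.3, 49.9, 83.2 and 129.7 CPM in batches 16 to 20, with a difference of -0.0094 ± 0.34 (log2, edgeR, adjusted p = 0.992). The claudins and the Ly6 genes had fitted values above 0. Cldn4 was at 8.58, 11.04, 9.83, 20.5 and 7.12 CPM in cTEC of batches 16 to 20, a difference of 1.67 ± 0.60 (log2, edgeR, adjusted p = 0.121), and Ly6a was at 15.9 to 39.7 CPM, a difference of 1.21 ± 0.34 (log2, edgeR, adjusted p = 0.0529).

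An unadjusted p under 0.05 was seen in that comparison for 4 of 9 members and 23.9% of genes, and DESeq2 called 3 members (Cldn4, Ly6d and Ly6a). Without batch 17, edgeR called Cldn3 (2.37, adjusted p = 0.0376), Cldn4 (2.14, adjusted p = 0.0310) and Ly6d (2.29, adjusted p = 0.0457), each higher in mTEClo on the log2 scale. The share of all genes called by DESeq2, and its range in edgeR when a batch was left out, are given below. Summed cTEC markers (Psmb11, Prss16 and 6 others) were at 3294 CPM in newborn mTEClo, 742 CPM in newborn mTEChi and 7944 CPM in newborn cTEC, and their part in these results was not tested.

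In adults the single cTEC pool had Trp63 at 609.4 CPM and Ly6a at 149.4 CPM, between the 8-week and the younger mTEClo pools. Its Pdpn, at 102.1 CPM, was above all 3 mTEClo pools, and its Epcam, at 225.7 CPM, below them. No member was called in mTEClo against cTEC (0.0573% of 40148 genes were, 0.0149% higher and 0.0423% lower; an unadjusted p under 0.05 was seen for 1 of 9 members and 10.2% of genes, and DESeq2 called 0 members). The fitted values were -0.50 ± 0.71 for Trp63, -1.11 ± 0.74 for Pdpn and 0.79 ± 0.30 for Epcam on the log2 scale. Without the 8-week pool Trp63 was lower in mTEClo, at -1.53 ± 0.23, and Cldn3 higher, at 1.31 ± 0.26, both called against the single cTEC pool. The range of the share of all genes called when a pool was left out is given below. At least 4 of the 8 tuft markers were read in 82.4% and 57.6% of cells of the 5- and 4-week pools then left. In the cTEC pool this share was 3.90%, and the part of these cells in the result was not tested.

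Adult and newborn cTEC, with 1 pool each and no test, had Trp63 alike, at 609.4 and 593.5 CPM. Pdpn and Epcam were also near each other, at 102.1 and 91.5 CPM and at 225.7 and 180.7 CPM. Itga6 was at 468.6 and 274.8 CPM. Wider gaps were seen for Plet1, at 18.6 and 4.43 CPM, Cldn3, at 37.7 and 5.30 CPM, Cldn4, at 45.1 and 11.4 CPM, Ly6d, at 50.4 and 11.7 CPM, and Ly6a, at 149.4 and 22.7 CPM. Genes can be set beside each other per kilobase of exon. On that scale Epcam led in adult mTEChi of 4-week males at 171.1 CPM per kb, while Ly6d led in 4-week females at 199.7 CPM per kb. In the 8-week mTEClo pool Ly6a led at 233.2 CPM per kb, followed by Epcam at 172.1 and Itga6 at 151.7 CPM per kb. In newborn cTEC the order was Epcam (82.3 CPM per kb), Trp63 (70.7) and Pdpn (50.3), with Plet1 lowest (2.28).

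Newborn and adult cells of the same sort were then compared. In mTEChi all 9 members had fitted values above 0, as had 46.9% of all genes, and no member was called. Pdpn was at 28.9 CPM in the newborn pool and at 6.28 to 13.8 CPM in the 4 adult pools, above each, with a difference of 1.79 ± 0.70 (log2, edgeR, unadjusted p = 0.0326, adjusted p = 1). Cldn3 (91.2 CPM), Cldn4 (227.7 CPM), Ly6d (159.5 CPM), Ly6a (102.8 CPM), Plet1 (27.2 CPM) and Epcam (377.9 CPM) were also above all 4 adult pools. The share of all genes with the newborn pool above the adult pools was not counted, so these positions are descriptions. The rule called 0% of 39971 genes, an unadjusted p under 0.05 was seen for 2.01% of genes and 1 of 9 members, and DESeq2 called 35 genes and 0 members. A group of 1 pool was assumed to vary like the others.

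In mTEClo, newborn against adult, 7 members had fitted values below 0 and none was called, while 45.5% of all genes had values above 0. Cldn3 was at 26.1 CPM in the newborn pool, between the adult pools, with a difference of -1.49 ± 0.83 (log2, edgeR, adjusted p = 0.602). Without the 8-week pool it was -1.96 ± 0.25 and called (adjusted p = 0.0205). The 4- and 5-week pools then left had summed tuft markers at 5761 and 5233 CPM against 381.1 CPM in newborn mTEClo. Their cTEC markers were at 315.3 and 409.1 CPM against 3294 CPM and their cycling markers at 9.48 and 13.6 CPM against 741 CPM, and the part of these cells in the result was not tested. Trp63 differed by 0.20 ± 0.74 over all pools and by 1.26 ± 0.24 (adjusted p = 0.0553) without the 8-week pool, and Pdpn by 0.88 ± 0.77 and 1.83 ± 0.50 (adjusted p = 0.138). Epcam was at 272.7 CPM, below all 3 adult pools, with a difference of -0.65 ± 0.30 (log2, edgeR, adjusted p = 0.528). The rule called 0% of genes here, an unadjusted p under 0.05 was seen for 9.93% of genes and 0 of 9 members, and DESeq2 called 1834 genes and 0 members.

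Aire-KO cells were compared with WT cells of the same sort to see whether these genes moved with loss of Aire. Aire itself was at 1109.7 to 1845 CPM in the 4 WT mTEChi pools and at 26.1 CPM in Aire-KO mTEChi, and at 26.1 to 39.5 CPM in WT mTEClo and 0.15 CPM in Aire-KO mTEClo. Plet1, Ly6d, Ly6a (42.01 CPM) and Cldn3 were at lower values in Aire-KO mTEChi than in all 4 WT pools. Trp63 and Itga6 (746.5 CPM) were at higher values than in all of them, and no member was called. The share of all genes that parted in this way, by pool or by batch, was not counted. Of 39971 genes the rule called 0% in mTEChi and 0% in mTEClo. An unadjusted p under 0.05 was seen for 4.37% of genes and 2 of 9 members in mTEChi and for 3.55% of genes and 1 of 9 members in mTEClo. DESeq2 called 1.92% of genes in mTEChi, 0.68% in mTEClo and no member in either sort.

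Plet1 was at 2.73 CPM in Aire-KO mTEChi and at 6.38 to 23.2 CPM in the WT pools, a difference of -2.36 ± 0.78 (log2, edgeR, unadjusted p = 0.0155, adjusted p = 0.925). Its 4 Aire-KO batches were at 1.52, 5.09, 2.53 and 2.82 CPM and its 9 WT batches at 6.39 to 23.2 CPM. The batches did not overlap, and with batches as the unit Plet1 was called at -2.09 ± 0.53 (log2, edgeR, adjusted p = 0.0176), a test that does not measure the spread between mice. At 200000 reads per cell Plet1 was found in 10.1% of Aire-KO and 22.1% of WT mTEChi. In mTEClo it was at 27.7 CPM in Aire-KO and at 28.2 to 51.9 CPM in WT, a difference of -0.41 ± 0.70 (log2). The effects in the 2 sorts were not shown to differ (interaction -1.95 ± 0.96, edgeR, unadjusted p = 0.0753, adjusted p = 1). That interaction was called for 0% of genes, with an unadjusted p under 0.05 for 3.44% of genes and 0 members, and DESeq2 called 0.468% of genes and no member.

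Ly6d was at 26.5 CPM in Aire-KO mTEChi and at 60.1 to 148.6 CPM in the WT pools, a difference of -1.57 ± 0.61 (log2, edgeR, unadjusted p = 0.0308, adjusted p = 0.925). Its Aire-KO batches were at 10.1 to 36.9 CPM and its WT batches at 40.9 to 148.6 CPM, without overlap. In mTEClo it was at 17.5 CPM in Aire-KO and at 41.3 to 65.3 CPM in WT, a difference of -1.60 ± 0.62 (log2, edgeR, unadjusted p = 0.0310, adjusted p = 1). It was found in 29.6% of Aire-KO and 60.2% of WT mTEChi, and in 16.9% and 52.9% of mTEClo. Keratinocyte markers summed to 155.3 CPM in Aire-KO mTEChi (WT 102.9 to 253.9 CPM) and to 44.6 CPM in Aire-KO mTEClo (WT 119.4 to 173.2 CPM).

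Other members in Aire-KO mTEChi had an unadjusted p above 0.05. Trp63 was at 275.5 CPM against 130.4 to 190.01 CPM in WT, above each pool, with a difference of 0.89 ± 0.69 (log2, edgeR, adjusted p = 0.946). Cldn3 (56.97 CPM) and Cldn4 (144.5 CPM) differed by -0.023 ± 0.74 and -0.065 ± 0.57 on the log2 scale. In mTEClo the Aire-KO pool lay nearer to the 8-week WT pool than to the younger ones for Cldn3 (21.1 CPM), Cldn4 (27.6 CPM), Pdpn (71.7 CPM) and Trp63 (727 CPM), but nearer to a younger pool for Itga6 (713 CPM) and Ly6a (113.6 CPM). Its Cldn3 difference was -1.69 ± 0.85 (log2, edgeR, adjusted p = 1) with that pool and -2.17 ± 0.25 (adjusted p = 0.0999) without it.

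**Figure D4:**
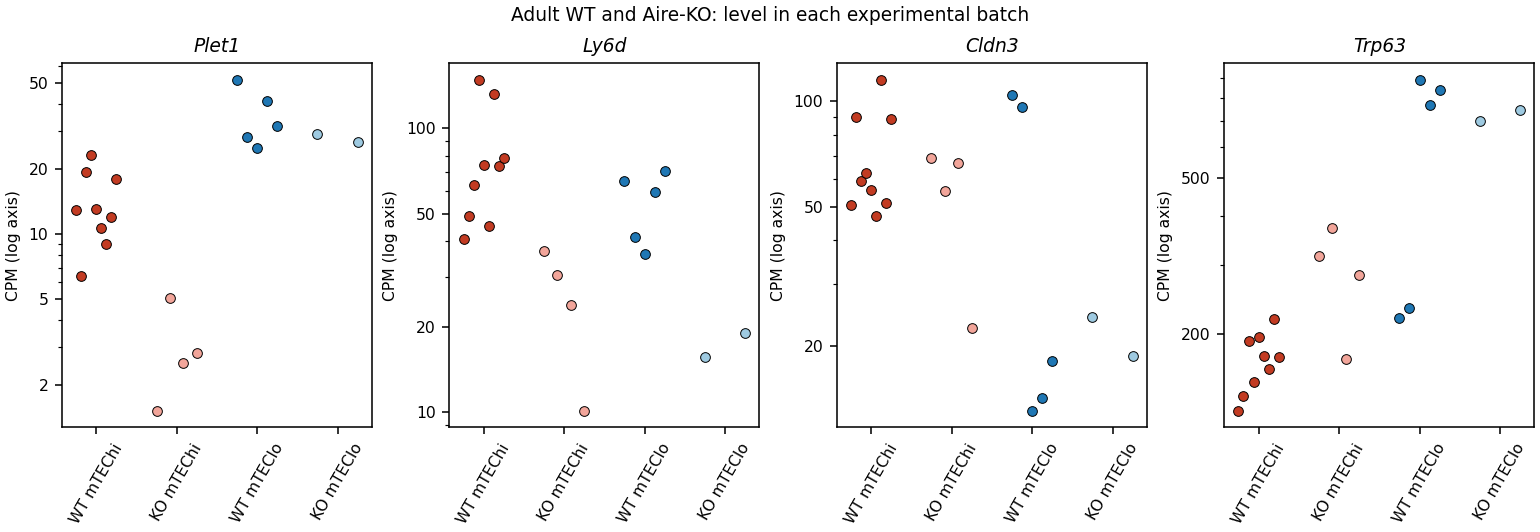
Level of Plet1, Ly6d, Cldn3 and Trp63 in each experimental batch of adult WT and Aire-KO cells. The horizontal axis gives the group and the vertical log axis CPM, and each point is 1 batch. Plet1 and Ly6d of Aire-KO mTEChi (1.52 to 5.09 and 10.1 to 36.9 CPM) lie below all WT mTEChi batches, and the batches of WT mTEClo part into the 8-week and the younger ones for Cldn3 and Trp63.

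Pairs of members were then followed across single cells of a sort. In each mTEClo group Cldn3 and Cldn4 went together, Trp63 and Pdpn went together, and Trp63 and Cldn3 went in opposite directions. In newborn mTEClo the Pearson r of log2(CPM + 1) was 0.72 for Cldn3 with Cldn4, 0.59 for Trp63 with Pdpn and -0.77 for Trp63 with Cldn3. In Aire-KO mTEClo these were 0.71, 0.65 and -0.75. In the 8-week WT pool they were 0.63, 0.52 and -0.56, and in the 5-week pool (74 cells) 0.61, 0.69 and -0.57. In the 620 adult WT mTEChi the same pairs were at 0.28, 0.02 and -0.04. In Aire-KO mTEChi they were at 0.40, 0.30 and -0.05, and in newborn mTEChi at 0.40, 0.19 and -0.21. In cTEC they were at 0.94, 0.33 and -0.80 in adults and at 0.63, 0.28 and -0.52 in newborns. The pattern was thus not particular to mTEClo. Plet1 in newborn mTEClo was at -0.45 with Trp63, 0.47 with Cldn3 and 0.48 with Cldn4. The adhesion genes Itga6 and Epcam were at -0.02 in adult WT mTEClo. Itga6 went with Trp63 in the 8-week pool (0.49) and less in newborn mTEClo (0.26). Cells share their pool, batch and depth, so these values are descriptions.

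**Figure D5:**
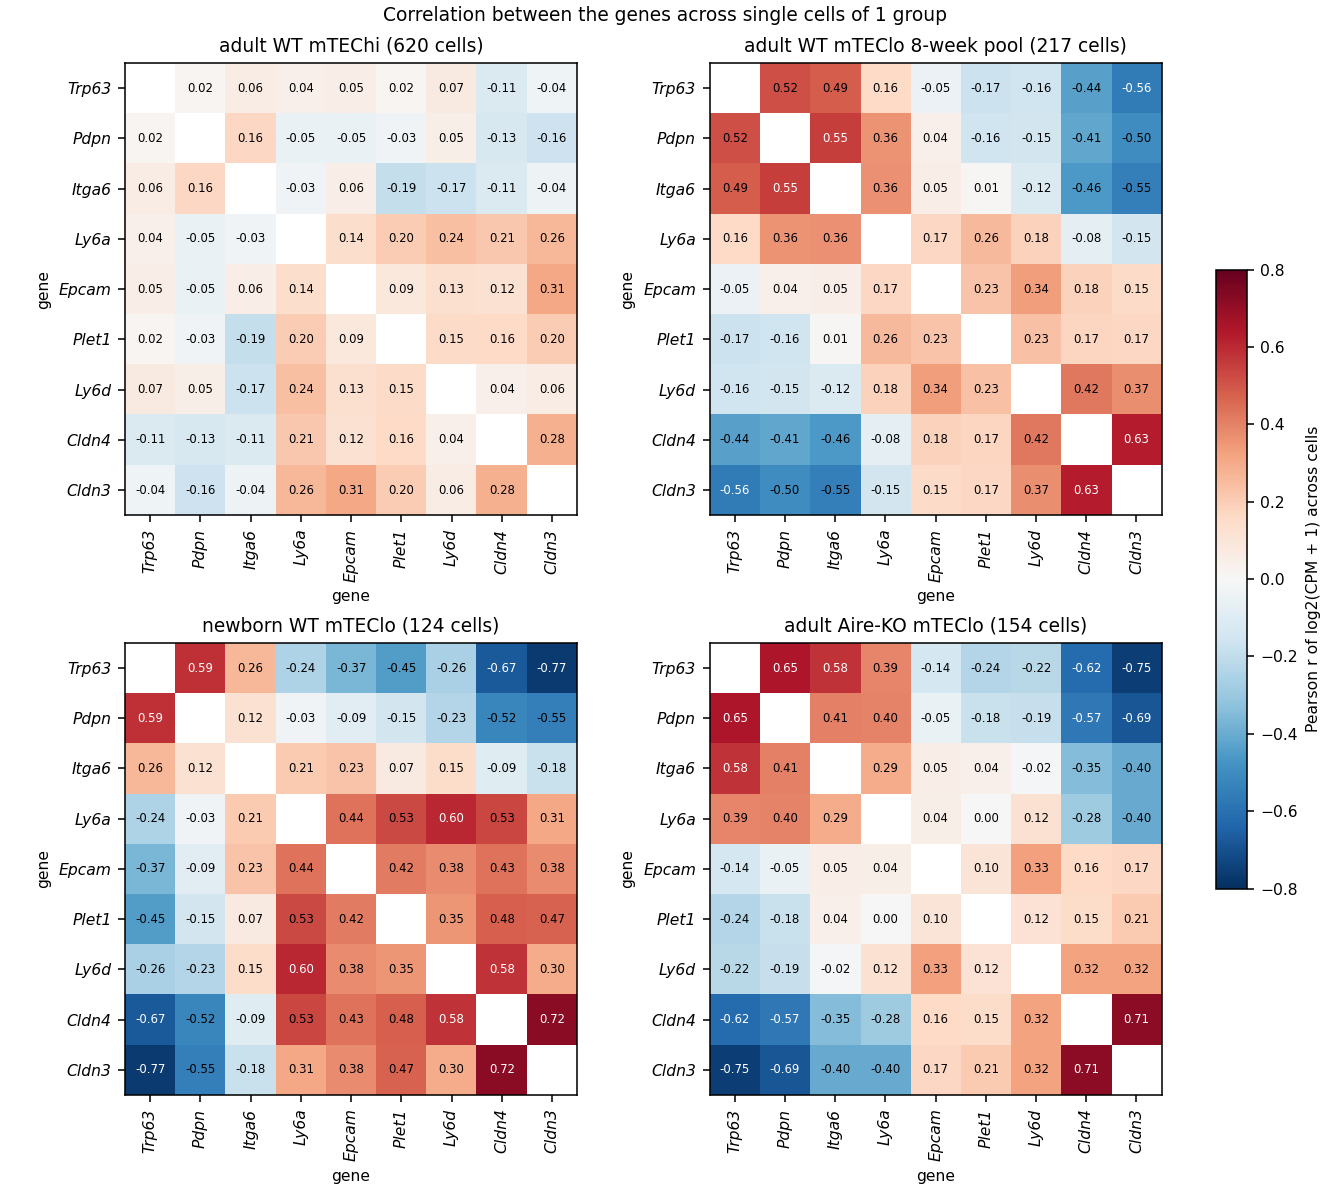
Correlation between the 9 genes across single cells in adult WT mTEChi, the 8-week adult WT mTEClo pool, newborn mTEClo and Aire-KO mTEClo. Rows and columns are genes, and colour and number give Pearson r of log2(CPM + 1). In the 3 mTEClo panels Trp63 with Cldn3 is at -0.56, -0.77 and -0.75, and in adult WT mTEChi at -0.04.

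The same opposition was seen when cells were sorted by their claudin reads. At 200000 reads per cell Cldn4 was found in 79.2% of the adult WT mTEClo with a Cldn3 read and in 28.2% of those without. In the median adult WT mTEClo with both claudins and with neither, Trp63 was at 54.1 and 891 CPM, Itga6 at 272.4 and 1367 CPM and Pdpn at 0 and 68.6 CPM. These cells came in unlike shares from the pools, so the medians were also taken within them. Trp63 was at 396.2 and 863 CPM in the 8-week, 15.99 and 871 CPM in the 5-week and 11.5 and 976 CPM in the 4-week pool, and Pdpn at 12.9 and 62.95, 0 and 94.8 and 0 and 59.8 CPM, each with the cells with neither claudin higher. In the younger pools those cells were few (10 and 8). Over all 3 pools, medians of summed markers were 393.7 and 4283 CPM for immature mTEC, 177.5 and 971 CPM for cTEC and 958 and 113.3 CPM for tuft markers. In newborn mTEClo the 21 cells with both and the 68 with neither had Trp63 at medians of 51.001 and 622 CPM, Pdpn at 4.18 and 105.6 CPM, summed immature mTEC markers at 512.7 and 1258 CPM and summed cTEC markers at 265.2 and 3633 CPM. Summed mature mTEC markers, with both claudins and with neither, were at medians of 919 and 3618 CPM in adult WT mTEClo. In newborn mTEClo they were at 1763 and 3370 CPM. Cells without claudin reads thus had more Trp63 and Pdpn at both ages. They also had more of the immature mTEC, mature mTEC and cTEC markers.

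Tuft-marker cells, those with at least 4 of the 8 tuft markers, made up 31.9% of adult WT mTEClo, with 16 cells at exactly 4 markers and 25 just below at 3. Most came from the younger pools (61 from the 5-week and 38 from the 4-week pool, against 15 from the 8-week pool). Most other mTEClo came from the 8-week pool, so sums over the 3 pools also carry the difference between pools. Over all of them Trp63 was at 185.4 against 756 CPM in the other cells, Pdpn at 14.7 against 84.1 CPM, Cldn3 at 106.96 against 25.8 CPM and Cldn4 at 68.3 against 30.5 CPM. Within the 8-, 5- and 4-week pools in turn, Trp63 was at 535.5 against 859.5, 196.7 against 416.1 and 56.7 against 411.7 CPM. Pdpn was at 34.96 against 91.5, 18.997 against 51.9 and 0.236 against 63.1 CPM, Itga6 at 762 against 1414, 459.01 against 1079 and 187.4 against 550.8 CPM and Ly6a at 140.5 against 291.3, 59.2 against 82.1 and 14.7 against 119.5 CPM. These 4 genes were thus lower in tuft-marker cells of each pool. Cldn3 was higher in them in each pool, at 50.2 against 12.4, 103.9 against 60.02 and 130.2 against 74.4 CPM. Cldn4 had no single direction, at 19.3 against 18.8, 60.9 against 74.98 and 97.9 against 66.4 CPM, and nor had Epcam, at 406.2 against 375.6, 450.4 against 483.6 and 412.6 against 347.1 CPM. The 26 such cells of Aire-KO mTEClo had Cldn3 at 51.5 against 13.6 CPM and Trp63 at 178.5 against 863 CPM. Without tuft-marker cells Trp63 in adult mTEClo against mTEChi was called, at 2.00 (log2, edgeR, adjusted p = 0.0164), and the Cldn3 value turned to -0.25.

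Keratinocyte-marker cells had at least 4 of 8 markers (Krt1, Krt10, Sbsn, Krtdap, Ivl, Spink5, Calm4 and Flg2). In the adult groups given here they had more Ly6d than the other cells. The 15 such cells of newborn mTEChi are not reported here. In adult WT mTEClo the 16 such cells had Ly6d at 378.6 against 38.2 CPM in the other cells. Within the 8-week pool, 12 such cells had 320.5 against 37.9 CPM, and the younger pools held too few to compare. In adult WT mTEChi 36 such cells had 216.6 against 69.5 CPM, and in Aire-KO mTEChi 14 had 213.7 against 16.7 CPM. Plet1 was higher in them too, at 99.4 against 32.4 CPM in mTEClo, 62.5 against 11.5 CPM in mTEChi and 16.3 against 2.02 CPM in Aire-KO mTEChi. The cells compared with them could still hold up to 3 of the markers, as 60 WT and 14 Aire-KO mTEChi did. Cldn4 was at 197.3 against 37.7 CPM in mTEClo.

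Over all 1980 cells the genes most like each member were sought among 16651 genes, by Pearson r of log2(CPM + 1). Cldn7, a further claudin, was nearest to both Cldn3 (r = 0.68) and Cldn4 (r = 0.72), followed by the junction gene Tjp3 (0.66) for Cldn3 and the polarity gene Crb3 (0.71) for Cldn4. Pdpn was nearest to Boc (0.74), Fzd2 (0.73) and Fgfr2 (0.73), and Trp63 to Gas6 (0.64), Fgfr2 (0.58) and Snai2 (0.58). Plet1 was nearest to its overlapping antisense gene Plet1os (0.54), with which it can share reads. Ly6d was nearest to its relatives Lynx1 (0.51) and Lypd2 (0.39), and Ly6a to Ly6e (0.52). Itga6 and Epcam had no gene above 0.42, with Gem (0.41) and Slc44a1 (0.42) first.

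Other genes of the same pathways were counted in 5 lists for adult mTEClo against mTEChi, where the median over all genes was -0.30 on the log2 scale and the rule called 4.13% of genes higher and 7.54% lower. Of 19 integrin, laminin and hemidesmosome genes 6 rose and 2 fell (median 0.86). Lamb1, a laminin chain, was at 426.4 ± 158.9 against 54.3 ± 29.2 CPM (SD, n = 3 and 4), while Col17a1, a hemidesmosomal collagen, was at 17.5 ± 8.91 against 153.6 ± 52.2 CPM. Of 20 basal and p63-linked genes 6 rose and 0 fell (median 0.77), among them Fgfr2 by 4.04 ± 0.59 and Jag2 by 3.49 ± 0.44 on the log2 scale. Of 19 junction and EpCAM partner genes Cldn12 alone rose, by 1.73 ± 0.35 (log2), and 0 fell (median 0.32).

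Of 15 Ly6 and uPAR family genes 0 rose and 5 fell (median -1.75), with Lypd6 at 1.83 ± 0.429 against 29.5 ± 4.60 CPM and Lypd2 at 2.91 ± 2.98 against 29.2 ± 9.17 CPM (SD, n = 3 and 4). Of 16 thymic epithelial progenitor and podoplanin-linked genes 6 rose and 3 fell (median 1.23). Those that rose included Ccl21a, a chemokine that draws thymocytes into the medulla, at 51.99 ± 48.3 against 4.44 ± 2.37 CPM, and Eya1 at 470.6 ± 116.2 against 81.7 ± 19.04 CPM. Those that fell included Foxn1, the master transcription factor of thymic epithelium, at -1.88 ± 0.39 on the log2 scale, and Tnfrsf11a, the receptor RANK, at -1.17 ± 0.24. Without the 8-week pool the genes called higher and lower were 4 and 2 of the integrin list, 4 and 0 of the basal, 1 and 0 of the junction, 0 and 5 of the Ly6 and 4 and 3 of the progenitor list, with 4.02% and 5.94% of all genes.

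In newborn mTEClo against mTEChi, where the median of all genes was -0.06 on the log2 scale and 12% of genes were called higher and 19.9% lower, 8 of 19 junction genes fell, among them Cldn7, Cldn23, Ocln and Tjp3, and 2 rose (Cldn8 and Cldn12), with a median of -1.07. Of the Ly6 and uPAR genes 9 of 15 fell and 0 rose (median -2.05). Integrin and laminin genes had 6 higher and 2 lower of 19 (median 0.37), basal genes 5 higher and 0 lower of 20 (median 0.42), and progenitor genes 5 higher and 3 lower of 16 (median 0.36). Against newborn cTEC, where 1.66% of genes were called higher and 2% lower, no list had more than 3 genes called in a direction, with Krt15 and Dsg3 among the basal genes that were higher in mTEClo. In the comparisons between ages, genotypes and adult mTEClo and cTEC no list gene was called by edgeR. Of all genes, edgeR called 0% between ages and genotypes and 0.0573% in adult mTEClo against cTEC, so this does not set the lists apart. Genes named here beyond the rule of the lists were named after their values were seen.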

How the data were processed

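The authors deposited whole-number counts per Ensembl gene, after removal of duplicate reads, for 1980 single cells. Some cells had 2 sequencing runs, and how these were joined is not given in the sources used here. Per the submitters' processing notes they used fastp 0.20.0, STAR 2.7.3a on mm10, SAMtools 1.9, Picard 2.21.1 and HTSeq 0.11.2, counting without strand, and they kept cells above set numbers of reads and genes. A second deposited table of length-scaled values was not used. GENCODE M21 on GRCm38 gave positions and the symbols of 48263 of 48437 genes.

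Counts were summed per pool (group, age and sex) and tested by quasi-likelihood in edgeR 4.0.16 under R 4.3.3, with TMM scaling and filterByExpr. The fits held 11 mTEC pools, all 13 pools for mTEClo against cTEC (5 residual degrees of freedom in each), or 15 newborn sums of sort and batch with a batch term (8 residual degrees of freedom). Each member passed the filter in every fit. The SE is the size of the log2 fold change over the root of the F statistic. Tests were 2-sided and p-values were adjusted over all genes tested. They measure the spread between pools, which may be technical. The fit was tested on simulated data. For shares, cells were thinned to 200000 reads, and exact binomial intervals cover counting error only. Cells were sorted singly into wells and doublets were not called, so wells with reads of other cells are not excluded. Alternatives were DESeq2 1.42.0, limma 3.58.1 on pool means of log2(CPM + 1), no filter, batches as units, no tuft-marker cells, all 13 pools in 1 fit, no batch term, other marker cuts, and each pool or batch left out. Named genes were the members, Aire, the 3 genes most like each member among genes with a read in 5% of cells, and from each list up to 2 called genes per direction, by size of fold, with at least 10 CPM in the higher group. The members, lists and alternatives were chosen with earlier results of these data known. Within-pool values of claudin and marker cells, and the lists without the 8-week pool, were added after seeing the data. Some genes of these lists are counted but not reported here by name.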

Additional observations from a re-analysis of the deposited data

Results flagged for a closer look

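Of 36 sets of levels looked at for a lone high or low unit (the 4 adult WT mTEChi pools, and the 5 batches of each newborn sort, for each of the 9 genes), 5 had one, where chance gives about 1 set in 20. Pdpn was at 13.8 CPM in the 4-week male mTEChi pool, against 6.28 to 7.15 CPM in the 3 other mTEChi pools. Ly6d was at 148.6 CPM in the female mTEChi pool, which is 1 experimental batch, against 60.1 to 72.2 CPM in the 3 male pools. Plet1 was at 58.7 CPM in newborn mTEChi of batch 18, against 17.2 to 27.8 CPM in the 4 other batches. Plet1 was at 48.6 CPM in newborn mTEClo of batch 20, against 3.93 to 13.8 CPM in the other batches, and that batch also had the highest mTEClo level of Cldn3, Cldn4, Ly6a and Epcam. Ly6a was at 39.7 CPM in newborn cTEC of batch 19, against 15.9 to 20.97 CPM in the other batches. No difference between the effects in 2 ages or 2 sorts was called for a member.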

How the results depend on the processing

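The members called in adult mTEClo against mTEChi were 1 in the main test, 4 with DESeq2, 5 with batches as units, 2 with limma, 2 without tuft-marker cells and 0 to 2 when 1 pool was left out. In newborn mTEClo against mTEChi they were 5, with 3 when the batch term was left out and 3 to 6 when a batch was left out. In newborn mTEClo against cTEC 0 became 3 with DESeq2, 1 without tuft-marker cells, 1 with no batch term and 0 to 3 when a batch was left out. In newborn against adult mTEClo 0 became 2 with batches as units, 1 with limma and 0 to 1 when a pool was left out, in adult mTEClo against cTEC 1 with limma and 0 to 2 when a pool was left out, in Aire-KO against WT mTEChi 1 and in the age interaction 3 with batches as units. Members whose adult mTEClo and mTEChi pools did not overlap were 5, and 3 without tuft-marker cells, where Plet1 and Epcam overlapped. 

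With batches as units the fitted log2 value changed sign for Cldn3 (-0.45) in adult mTEClo against mTEChi, Trp63 (-0.057) in newborn against adult mTEChi, Trp63 (-0.25) and Cldn4 (0.035) in newborn against adult mTEClo, Pdpn (-0.050) in Aire-KO against WT mTEChi, Ly6a (0.076) in the Aire-KO interaction, Trp63 (-0.20) in the age interaction, Cldn4 (-0.22) and Ly6a (0.33) in adult mTEClo against cTEC. With equal weight per cell (limma) the fitted log2 value changed sign for Trp63 (-0.0095) and Itga6 (-0.058) in adult mTEClo against mTEChi, Cldn3 (0.050) in Aire-KO against WT mTEChi, Itga6 (0.27) and Ly6a (0.46) in Aire-KO against WT mTEClo, Trp63 (-1.10) and Ly6d (-0.56) in the Aire-KO interaction, Pdpn (1.84) in the age interaction, Ly6a (0.53) in adult mTEClo against cTEC. Without tuft-marker cells the fitted log2 value changed sign for Cldn3 (-0.25) in adult mTEClo against mTEChi, Trp63 (-0.029) in newborn against adult mTEClo, Cldn3 (0.11) and Cldn4 (0.041) in Aire-KO against WT mTEChi, Plet1 (0.020) in Aire-KO against WT mTEClo, Trp63 (-0.14) in the age interaction, Ly6a (0.11) in adult mTEClo against cTEC, Pdpn (0.023) in newborn mTEClo against cTEC. With no filter on low counts the fitted log2 value changed sign for Cldn3 (0.10) and Cldn4 (0.057) in Aire-KO against WT mTEChi, Epcam (0.10) in the Aire-KO interaction, Pdpn (0.0029) in newborn mTEClo against cTEC. With all 13 pools in 1 fit the fitted log2 value changed sign for Cldn3 (0.13) and Cldn4 (0.085) in Aire-KO against WT mTEChi, Epcam (0.17) in the Aire-KO interaction. With DESeq2 the fitted log2 value changed sign for Epcam (0.015) in the Aire-KO interaction, Pdpn (0.026) in newborn mTEClo against cTEC. Leaving out 1 pool or batch in turn changed a sign within these ranges of log2 values: Itga6 -0.13 to 1.10, Ly6a -0.041 to 1.59 and Cldn3 -0.028 to 0.80 in adult mTEClo against mTEChi, Trp63 -0.090 to 0.10 in newborn against adult mTEChi, Ly6a -1.49 to 0.13, Trp63 -0.14 to 1.26 and Cldn4 -0.72 to 0.071 in newborn against adult mTEClo, Cldn3 -0.029 to 0.14, Cldn4 -0.071 to 0.10 and Epcam -0.21 to 0.053 in Aire-KO against WT mTEChi, Itga6 -0.50 to 0.72 and Ly6a -0.69 to 0.94 in Aire-KO against WT mTEClo, Trp63 -0.88 to 0.53, Itga6 -0.16 to 1.07, Ly6d -0.084 to 0.46, Pdpn -1.24 to 0.23, Ly6a -1.57 to 0.059 and Epcam -0.089 to 0.25 in the Aire-KO interaction, Pdpn -1.25 to 0.037 and Trp63 -0.18 to 1.22 in the age interaction, Itga6 -0.13 to 1.05, Ly6d -0.089 to 0.23, Ly6a -1.35 to 0.24 and Cldn4 -0.21 to 0.61 in adult mTEClo against cTEC, Pdpn -0.13 to 0.16 in newborn mTEClo against cTEC. The cause of these changes was not tested.

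Counts over all genes moved more, and are given as a share of the genes each setting tested. Adult mTEClo against mTEChi had 11.7% called, 24.9% with DESeq2, 35% with batches as units, 7.66% with limma and 4.7% to 13.9% when a pool was left out. Newborn against adult mTEClo had 0, with 4.59% by DESeq2, 16% with batches as units, 3.06% by limma and 1.34% without the 8-week pool. The age interaction had 0, with 0.628% by DESeq2, 5.33% with batches as units and 0.235% by limma. Newborn against adult mTEChi had 0, 0.0876% by DESeq2 and 1.79% with batches as units. Aire-KO against WT had 0 in mTEChi, with 1.92% by DESeq2 and 5.67% with batches as units, and 0 in mTEClo, with 0.68% and 0.265%. Their interaction had 0, 0.468% and 0.346%. Adult mTEClo against cTEC had 0.0573%, with 5.22% by DESeq2, 2.35% with batches as units, 1.21% by limma and 0% to 2.19% when a pool was left out. Newborn mTEClo against cTEC had 3.66%, 8.3% by DESeq2 and 1.74% to 4.37% when a batch was left out. Why these shares moved was not tested.

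Beyond these, 970 of the fitted member values kept their direction and side of the threshold, 34 passed and 11 lost the threshold with the same direction. The median of all genes in adult mTEClo against mTEChi was -0.30 in the main test, -0.39 with DESeq2, -0.53 with no filter, -0.48 without tuft-marker cells and -0.038 with limma. In the adult, age and genotype comparisons no paired analysis was possible because the numbers in the labels count cells and pair no samples across groups. The newborn sorts shared batches, and the fits with and without the batch term are given above. Pools are few, groups of 1 pool carry no spread of their own, and mice are not named, so a small difference is not detectable in the adult comparisons.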

Other observations

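The adult cTEC sort held cells with both claudins that had low levels of the cTEC markers. Of 77 cells, 14 had a read of both Cldn3 and Cldn4 at 200000 reads per cell and 54 had neither, and across the 77 cells the r of the pair was 0.94. In the median cell with both and with neither, summed cTEC markers were at 734 and 9126 CPM. Trp63 was at medians of 21.3 and 654 CPM, Pdpn at 11.3 and 125.5 CPM, Ly6a at 546.2 and 0.957 CPM and Epcam at 573.8 and 137.3 CPM. In newborn cTEC the 13 cells with both claudins and the 86 with neither had summed cTEC markers at medians of 5031 and 9172 CPM and Trp63 at 471.5 and 589.9 CPM. Cells were divided this way after the values were seen, and no test was made of it.

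In newborn mTEClo Ly6d and Ly6a went together across cells (r = 0.60). The same r was 0.24 in newborn mTEChi, 0.26 in newborn cTEC, 0.24 in adult WT mTEClo and 0.12 in Aire-KO mTEClo, and the difference between groups was not tested.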
